A study of Ovis aries with 9 samples.

Results

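Aminoacyl-tRNA synthetases join each amino acid to the tRNA that reads its codon, so every protein made in a cell depends on them. Most amino acids have an enzyme for the cytosol and a separate, nuclear-encoded enzyme for the mitochondrion, whose name ends in 2. The genes described here were taken from the gene table by symbol, a rule that used no measured value: every symbol made of 1 letter and ARS, with or without a final 1 or 2, together with EPRS, EPRS1, FARSA, FARSB, AIMP1, AIMP2 and EEF1E1. The rule found 32 of 39157 genes, each with a single row. They are 17 cytosolic enzyme genes, 14 mitochondrial enzyme genes and AIMP2, a scaffold protein that carries no synthetase activity. The symbols LARS, CARS, VARS, FARS2, SARS2, YARS2, AIMP1 and EEF1E1 had no row and are not analysed here.

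Several cytosolic enzymes sit in the multisynthetase complex, a large assembly held together by scaffold proteins, and 7 of its enzymes were measured (IARS, DARS, EPRS, KARS, RARS, QARS and MARS). The other 10 cytosolic genes (SARS, FARSB, TARS, GARS, NARS, FARSA, AARS, WARS, HARS and YARS) encode enzymes outside it. EPRS joins both glutamate and proline, FARSA and FARSB are the subunits of a single phenylalanine enzyme, and the GARS and KARS genes each also give the mitochondrial form of their enzyme. When amino acids or energy run short, the transcription factor ATF4 is known to raise many of the cytosolic synthetase genes, which is why a change of glucose supply is a natural setting in which to look at them.

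Granulosa cells (GCs), which line the ovarian follicle and nurse its oocyte, came from small follicles of thin-tailed Han ewes aged 1 to 1.5 years. All cultures first spent 8 h without glucose and serum and then 24 h with 0 mM glucose (CON), 8.4 mM glucose (LOW) or 33.6 mM glucose (HIGH). Whole-transcriptome RNA-seq gave 3 libraries per group, 9 in all. The follicle fluid of many ovaries was pooled for culture and nothing states that the replicates came from separate animals, so the p-values below measure the spread between cultures, and in such bulk samples fewer cells of a type and less RNA per cell cannot be told apart.

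Values are FPKM, fragments per kilobase of RNA set against the size of the library, which allows levels to be compared between genes of different length. In the deposited values labelled as read counts, an FPKM of 1 stood for 48.0 to 71.3 per kilobase of genomic span in a library. These values are rescaled FPKM and are not shown to be sequenced fragments. Each library was further scaled on the median of its expressed genes, with factors from 0.939 to 1.11. The libraries of a group were not alike. The median of 29 ribosomal protein genes, in FPKM as deposited, was 453, 692 and 866 in CON 1, CON 2 and CON 3, 634, 683 and 645 in LOW 1, LOW 2 and LOW 3, and 324, 467 and 636 in HIGH 1, HIGH 2 and HIGH 3. The share of FPKM in small RNA genes ran from 30.3% in HIGH 1 to 72.1% in LOW 3. HIGH 1 and CON 1 thus lay low and CON 3 high in ribosomal protein mRNA.

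The label of the cells was set against marker genes. FSHR, the receptor for follicle-stimulating hormone, lay between 0.228 and 0.577 FPKM, and HSD17B1 between 0.106 and 0.649 FPKM. The granulosa genes INHA (8.53 to 20.2 FPKM) and NR5A2 (14.3 to 18.5 FPKM) were plainly present. FST was at 7.86 to 10.3 FPKM and INHBA at 4.12 to 5.10 FPKM. CYP19A1, FOXL2 and AMH were not analysed here. The 8 markers of theca and stroma summed to 3419 to 4043 FPKM in CON, 3669 to 3871 FPKM in LOW and 3735 to 4007 FPKM in HIGH, against 40.7 to 50.1 FPKM for 6 granulosa markers over all libraries. Within the theca and stroma list, CYP17A1 was at 0.139 to 0.421 FPKM and LUM at 1756 to 2288 FPKM. The 4 leukocyte markers summed to 15.1 to 21.1 FPKM, with CD68 at 7.41 to 13.3 FPKM and CD14 at 6.17 to 7.50 FPKM. The other 2 were low, with PTPRC at 0.00956 to 0.694 FPKM and LYZ at 0.615 to 1.07 FPKM. Endothelial markers summed to 0.175 FPKM or less, with CDH5 at 0 in every library. TXNIP, a gene known to be induced by glucose, was at 68.5, 88.7 and 105 FPKM in CON, 213, 226 and 233 FPKM in LOW and 179, 205 and 216 FPKM in HIGH. Its log2 fold change was 1.38 (SE 0.17, unadjusted p 1.4e-05, adjusted p 0.112) in LOW against CON and 1.21 (SE 0.17, unadjusted p 3.9e-05, adjusted p 0.159) in HIGH against CON. Neither glucose group overlapped with CON for this gene, although the adjusted p-values missed the threshold of 0.05.

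The cytosolic synthetase genes were the more abundant class in every library. The median over the 17 cytosolic genes was 25.4 ± 2.57 FPKM in CON, 23.7 ± 0.304 FPKM in LOW and 26.3 ± 3.15 FPKM in HIGH (mean ± SD, n = 3 per group). Over the 14 mitochondrial genes it was 6.35 ± 0.843 FPKM in CON, 6.09 ± 0.164 FPKM in LOW and 5.54 ± 0.458 FPKM in HIGH. On the log2 scale the cytosolic median exceeded the mitochondrial median by 2.06 ± 0.25 (SD over 9 libraries), a ratio of 4.17. This difference ran from 1.81 to 2.34 in CON, from 1.93 to 1.98 in LOW and from 1.94 to 2.51 in HIGH, so the 3 groups overlapped. Of the mitochondrial genes, 1, IARS2, lay above the cytosolic median.

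**Figure D1:**
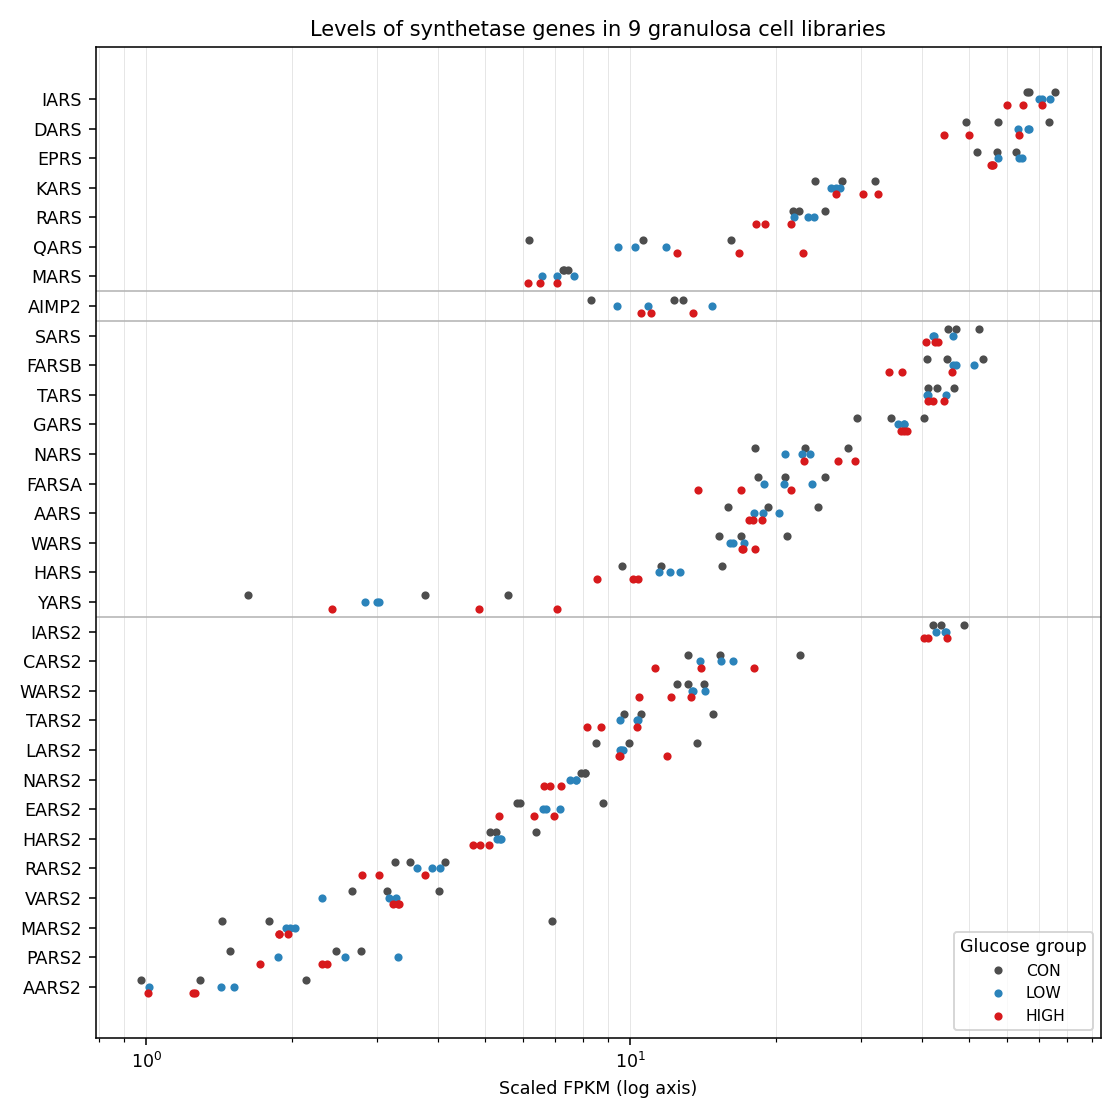
Scaled FPKM (log axis) of 31 synthetase genes, with 1 point per library in grey for CON, blue for LOW and red for HIGH; rows are split by lines into enzymes of the multisynthetase complex, the scaffold AIMP2, other cytosolic enzymes and mitochondrial enzymes. IARS at 60.0 to 75.5 FPKM and AARS2 at 0.976 to 2.13 FPKM are the ends of the range, and the colours overlap in most rows.

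IARS, the isoleucine enzyme, had the highest level of all 32 genes. Its FPKM was 66.0, 66.5 and 75.5 in CON, 70.9, 69.7 and 73.5 in LOW and 60.0, 64.8 and 70.9 in HIGH. The groups overlapped throughout. DARS, which charges the tRNA for aspartate, followed with 49.3, 57.5 and 73.3 FPKM in CON, 63.3, 66.5 and 66.3 FPKM in LOW and 44.5, 50.0 and 63.5 FPKM in HIGH. EPRS was at 62.8, 57.2 and 52.0 FPKM in CON, 64.3, 57.4 and 63.6 FPKM in LOW and 55.7, 56.0 and 56.1 FPKM in HIGH. DARS and EPRS did not differ beyond their spread, since their ranges over the 9 libraries, 44.5 to 73.3 FPKM and 52.0 to 64.3 FPKM, lay over each other. All 3 leading genes encode enzymes of the multisynthetase complex.

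At the other end of the cytosolic class stood another complex enzyme, MARS, and the free tyrosine enzyme YARS. MARS, which also charges the initiator tRNA of translation with methionine, had 7.28, 7.26 and 7.43 FPKM in CON, 6.57, 7.04 and 7.64 FPKM in LOW and 6.14, 6.50 and 7.05 FPKM in HIGH. All HIGH libraries lay below all CON libraries, and HIGH 1 and HIGH 2 also lay below all LOW libraries, whose range covered that of CON. YARS had 5.59, 3.77 and 1.62 FPKM in CON, 2.99, 2.83 and 3.03 FPKM in LOW and 7.05, 4.87 and 2.42 FPKM in HIGH. The spread within CON and within HIGH was wider than the step between any group means, and the 3 LOW libraries lay close together within the ranges of CON and HIGH.

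AIMP2, which holds the lysine enzyme and others in the complex, was at 8.28, 12.3 and 12.9 FPKM in CON, 9.37, 10.9 and 14.7 FPKM in LOW and 10.5, 11.0 and 13.5 FPKM in HIGH. The groups overlapped, and its log2 fold changes were 0.065 in LOW against CON, 0.083 in HIGH against CON and 0.018 in HIGH against LOW, each with an SE of 0.22. Between these extremes the cytosolic genes formed a graded series: SARS, FARSB, TARS and GARS had means of 36.0 to 44.8 FPKM, KARS, NARS, RARS and FARSA of 19.99 to 28.0 FPKM, and AARS, WARS, QARS and HARS of 11.3 to 18.99 FPKM.

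Among the mitochondrial enzymes IARS2 stood alone, with 48.8, 43.8 and 42.2 FPKM in CON, 44.7, 42.7 and 44.8 FPKM in LOW and 40.4, 41.2 and 45.2 FPKM in HIGH. The next gene, CARS2 for cysteine, had 13.1, 15.4 and 22.4 FPKM in CON, 13.9, 16.3 and 15.4 FPKM in LOW and 11.2, 14.0 and 18.0 FPKM in HIGH. WARS2 for tryptophan had 12.5, 13.1 and 14.2 FPKM in CON, 14.3, 13.5 and 13.4 FPKM in LOW and 10.4, 12.1 and 13.3 FPKM in HIGH. CARS2 and WARS2 overlapped each other in every group, while the lowest IARS2 library was far above the highest CARS2 library.

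The lowest mitochondrial genes were PARS2 and AARS2. PARS2, the proline enzyme of mitochondria, had 2.78, 2.47 and 1.49 FPKM in CON, 3.31, 2.57 and 1.87 FPKM in LOW and 2.31, 2.36 and 1.72 FPKM in HIGH. AARS2, the alanine enzyme, had 0.976, 1.29 and 2.13 FPKM in CON, 1.01, 1.51 and 1.42 FPKM in LOW and 1.25, 1.26 and 1.01 FPKM in HIGH. Both genes overlapped between all groups. TARS2, LARS2, NARS2, EARS2, HARS2, RARS2, VARS2 and MARS2 had means from 2.42 to 10.3 FPKM.

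For 8 amino acids both the cytosolic and the mitochondrial enzyme were set side by side, and the cytosolic gene was higher in all 9 libraries for 8 of 8 pairs. The ratio was not uniform. AARS stood 14.7-fold above AARS2 (ratios of geometric means over 9 libraries). RARS stood 6.16-fold above RARS2, TARS 4.23-fold above TARS2, MARS 3.25-fold above MARS2, NARS 3.16-fold above NARS2 and HARS 2.12-fold above HARS2. The smallest ratios belonged to IARS over IARS2 at 1.57-fold and WARS over WARS2 at 1.33-fold. The log2 difference between WARS and WARS2 lay at 0.29 to 0.57 in the CON libraries, 0.26 to 0.28 in those of LOW and 0.35 to 0.80 in those of HIGH. That between NARS and NARS2 lay at 1.19 to 1.80 in CON, with 1.47 to 1.61 in LOW and 1.75 to 2.02 in HIGH. In both pairs HIGH lay above LOW without overlap and CON overlapped HIGH. For WARS and WARS2 the CON libraries also lay above those of LOW. HARS over HARS2 went the other way, with 0.85 to 1.05 in HIGH below 1.12 to 1.23 in LOW. So did IARS over IARS2, with 0.571 to 0.655 in HIGH below 0.665 to 0.714 in LOW. The remaining pairs overlapped between HIGH and LOW, and none of these differences was tested. How many ratios of other gene pairs lack overlap was not computed. Of single genes tested, 18.9% had no overlap between HIGH and LOW and 6.06% had none between LOW and CON.

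The question put to the 3 glucose groups was whether the synthetase genes followed the glucose supply. A gene was called when its limma p-value, adjusted over all 24364 genes tested, was under 0.05 and its absolute log2 fold change was above 1. All 32 genes passed the filter on low values. Between LOW and CON none was called, where 0.00821% of all genes were, and none reached an unadjusted p under 0.05, where 1.83% of all genes did. Between HIGH and CON none was called, against 0.00821% of all genes, and again 0 reached an unadjusted p under 0.05, where 6.76% of all genes did. Between HIGH and LOW the counts were 0 called, against 0.00821% of all genes, and 0 at an unadjusted p under 0.05, against 7.66% of all genes. The smallest adjusted p-values of the 32 genes were 1.00, 0.651 and 0.633 in these 3 comparisons. The comparisons share libraries and are not independent of each other.

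The intervals bound what such a test could have missed. The 95% interval of the log2 fold change stayed within -1 and 1, a 2-fold change either way, for 30 of 32 genes in LOW against CON and for 29 of 32 in each comparison with HIGH. It stayed within -0.5 and 0.5 for 21, 16 and 16 of the 32 genes in LOW against CON, HIGH against CON and HIGH against LOW. YARS and MARS2 had intervals past -1 or 1 in all 3 comparisons, and QARS in both comparisons with HIGH.

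**Figure D2:**
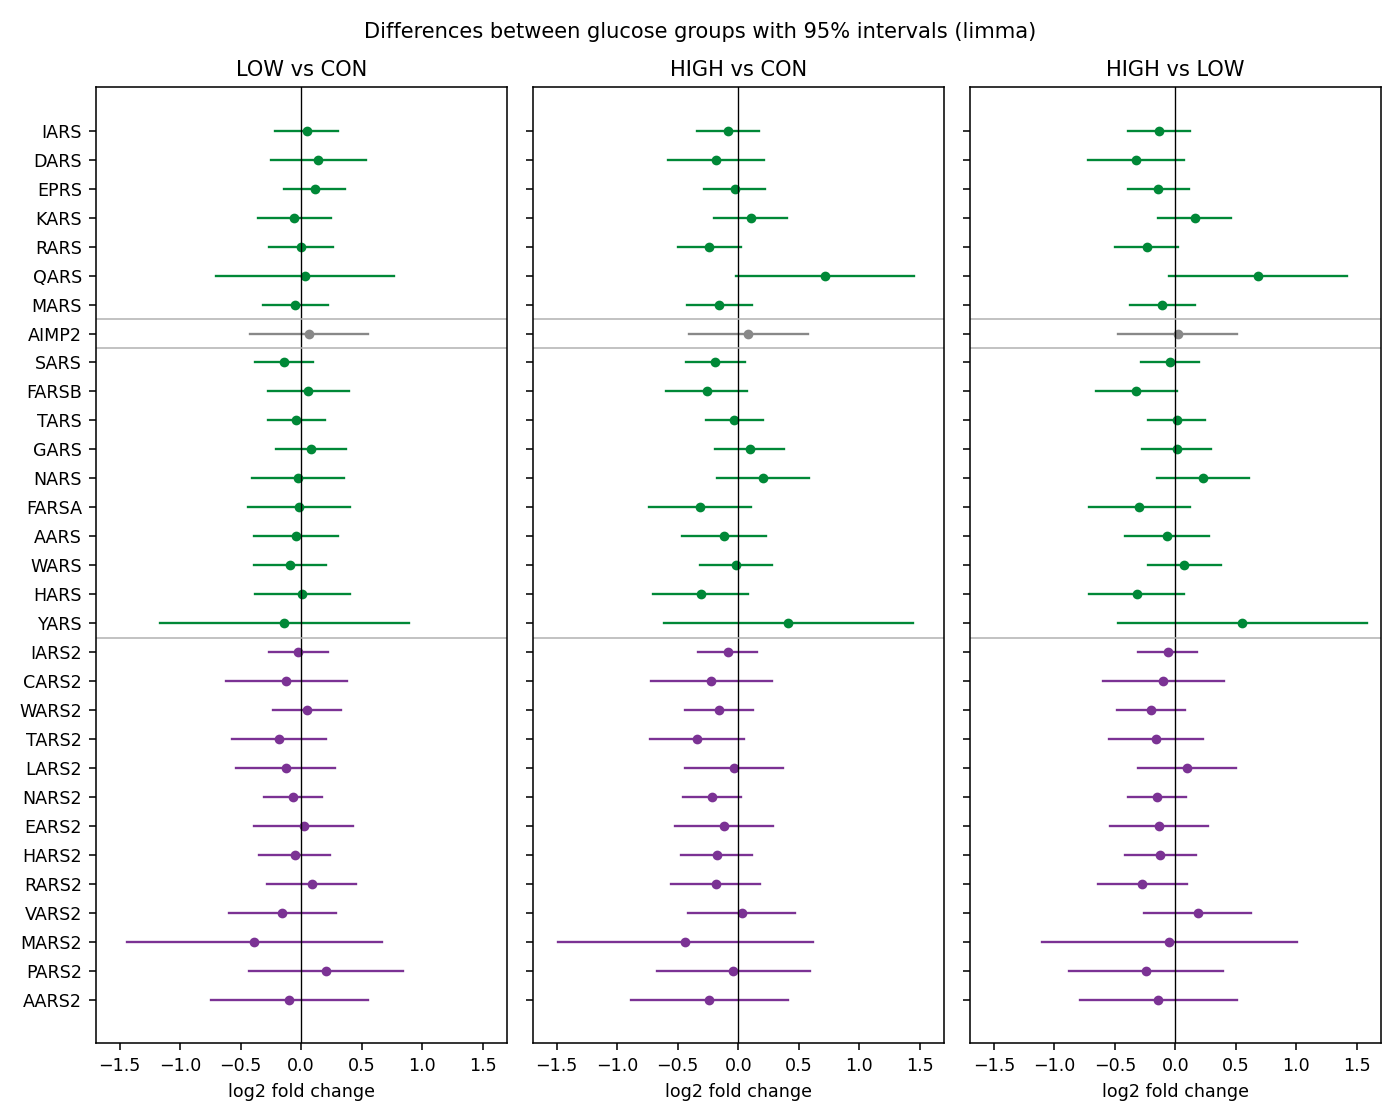
Log2 fold change of 31 synthetase genes (points) with 95% intervals from limma (bars) for LOW vs CON, HIGH vs CON and HIGH vs LOW; green marks cytosolic, grey scaffold and purple mitochondrial genes, in the order of the plot of levels. Every interval includes 0, and in HIGH vs CON 12 of the 13 purple points lie to the left of 0.

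Between LOW and CON the values lay close to 0 on either side. The median log2 fold change was -0.018 over the cytosolic genes and -0.071 over the mitochondrial genes, where the median over all genes tested was 0.0076. Over all genes tested 48.6% were lower in LOW, and 16012 of 24365 were without scaling. Of the 32 genes 20 were lower in LOW and 12 higher, and without scaling of the libraries 29 were lower. The smallest p-value belonged to SARS, the serine enzyme (chromosome 1, 85679981 to 85699849 in the coordinates of the files, whose genome build is not given in the sources used here). It was at 47.1, 45.3 and 52.6 FPKM in CON and 46.3, 42.4 and 42.3 FPKM in LOW, with 1 LOW library inside the CON range. Its log2 fold change was -0.14 (SE 0.11, unadjusted p 0.211, adjusted p 1.00), with -0.080 without CON 3 and -0.25 without scaling.

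TARS2, the mitochondrial threonine enzyme (chromosome 1, 99428961 to 99440451), was at 9.68, 10.5 and 14.8 FPKM in CON and 9.51, 10.3 and 10.4 FPKM in LOW. CON 1 lay inside the LOW range and CON 3 far above it, and the log2 fold change was -0.19 (SE 0.17, unadjusted p 0.308, adjusted p 1.00), which became -0.0020 without CON 3 and -0.31 without CON 1. EPRS (chromosome 12, 21603213 to 21667390) had a log2 fold change of 0.11 (SE 0.11, unadjusted p 0.350, adjusted p 1.00), with overlapping groups. It was 0.045 without CON 3, 0.18 without CON 1 and 0.0058 without scaling.

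MARS2, the mitochondrial methionine enzyme (chromosome 2, 198870091 to 198884946), shows how 1 library can set a value. Its FPKM was 1.80, 6.88 and 1.43 in CON, 1.94, 1.98 and 2.03 in LOW and 1.96, 1.88 and 1.88 in HIGH. CON 2 stood far above the other 8 libraries, which lay between 1.43 and 2.03 FPKM. The log2 fold change of LOW against CON was -0.39 (SE 0.47, unadjusted p 0.428, adjusted p 1.00) and turned to 0.29 without CON 2. It was -0.65 without CON 1 and -0.80 without CON 3. The excess came from 1 transcript, MARS2-201, which was listed at 4.79 FPKM in CON 2 and at 0 in the other libraries. A sole gene of the 32, NARS2, had no overlap between LOW and CON (3.1% of the genes, against 6.06% of all genes tested).

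In HIGH against CON, 25 of the 32 genes had the lower mean in HIGH. The median log2 fold change was -0.088 over the cytosolic genes, where 12 of 17 were lower, and -0.17 over the mitochondrial genes, where 13 of 14 were lower; VARS2 at 0.028 was the exception. The median over all genes tested was 0.069, with 43.7% of them lower. Over the 13805 genes of a stricter filter (an FPKM of 1 in 3 libraries), which all 32 passed, it was -0.012, with 7108 lower. With the libraries scaled on the upper quartile 11 of 14 mitochondrial genes were lower, and without scaling 14 of 14. These medians are descriptions over genes of the same libraries and carry no test. The mitochondrial median was -0.090 without CON 3 and -0.079 without HIGH 1, the libraries with the highest and the lowest ribosomal protein mRNA, and -0.037 in a fit with the ribosomal protein level as a covariate, where 10 of 14 genes were lower. That fit was added after the data were seen. With the small RNA share as a covariate it was -0.060, again with 10 of 14 lower. Both covariates leaned lower in HIGH than in CON, so group and covariate cannot be fully told apart in any such fit of HIGH against CON. The cytosolic median was -0.045 without CON 3, -0.027 with upper quartile scaling and -0.13 without scaling.

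QARS, the glutamine enzyme of the multisynthetase complex (chromosome 19, 50859155 to 50866515), had the largest difference of the 32 genes and moved the other way. Its FPKM was 16.2, 10.6 and 6.18 in CON, 11.8, 9.42 and 10.2 in LOW and 22.8, 16.8 and 12.5 in HIGH. Each HIGH library lay above all LOW libraries, but CON 1 lay inside the HIGH range. The log2 fold change was 0.72 (SE 0.33, unadjusted p 0.0551, adjusted p 0.651) against CON and 0.69 (SE 0.33, unadjusted p 0.0647, adjusted p 0.633) against LOW. QARS was higher where the ribosomal protein genes were lower, in CON 1 and HIGH 1, and with the ribosomal protein level as a covariate its log2 fold change was 0.14 against CON (unadjusted p 0.361) and 0.095 against LOW. With the small RNA share as a covariate it was 0.33 and 0.058. In these fits, too, group and covariate cannot be fully told apart. Leaving out single libraries moved the log2 fold change against CON between 0.36, without CON 3, and 1.05, without CON 1.

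RARS, the arginine enzyme of the complex (chromosome 5, 77827988 to 77886274), lay lower in HIGH than in both other groups. Its FPKM was 22.3, 21.7 and 25.2 in CON, 23.3, 21.8 and 23.9 in LOW and 18.95, 18.2 and 21.4 in HIGH. No HIGH library reached the range of CON or of LOW. The log2 fold change was -0.24 (SE 0.12, unadjusted p 0.0673, adjusted p 0.651) against CON and -0.24 (SE 0.12, unadjusted p 0.0685, adjusted p 0.633) against LOW. The second value was -0.14 with the small RNA share as a covariate.

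NARS2, the mitochondrial asparagine enzyme (chromosome 21, 16864504 to 17007819), was the steadiest of the 32 genes. Its FPKM was 8.05, 8.07 and 7.92 in CON, 7.71, 7.71 and 7.52 in LOW and 7.17, 6.64 and 6.82 in HIGH. The groups stood in the order CON, LOW, HIGH with no library out of place. Its SD within groups was 0.035 on the log2 scale, and 0.037% of 2700 genes at a like level had a smaller one. The log2 fold change of HIGH against CON was -0.22 (SE 0.11, unadjusted p 0.0714, adjusted p 0.651). limma draws such a small spread toward that of other genes, so the SE is larger than the spread of NARS2 alone would give.

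TARS2 was at 8.71, 8.14 and 10.3 FPKM in HIGH, where CON held 9.68 to 14.8 FPKM. The ranges met, with HIGH 3 inside CON, and the log2 fold change was -0.34 (SE 0.17, unadjusted p 0.0769, adjusted p 0.651). It was -0.16 without CON 3, -0.22 with the small RNA share as a covariate and -0.14 with the ribosomal protein level as a covariate. Without overlap between HIGH and CON were 5 genes, all lower in HIGH: RARS, NARS2, SARS, HARS2 and MARS. That is 15.6% of the 32 genes, where 9.38% of all genes tested did not overlap. SARS had a log2 fold change of -0.19, HARS2 of -0.18 and MARS of -0.16.

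Beside these values stood the markers of other cells. In HIGH against CON, 6.76% of all genes tested reached an unadjusted p under 0.05. Of the 8 theca and stroma markers 3 did and were higher (COL1A1 by 1.54, COL1A2 by 0.79 and PDGFRA by 0.74 on the log2 scale). Another 3 had log2 fold changes below 0 (CYP17A1 -0.39, ACTA2 -0.12 and DCN -0.098). At the same threshold 1 of 6 granulosa markers was lower (INHA, by 0.55, given as a log2 difference). So was 1 of 4 leukocyte markers (CD68), while PTPRC, at low FPKM, had 1.05 (unadjusted p 0.0997). The markers that passed all had adjusted p-values of 0.651. The summed stromal level of HIGH lay inside the range of CON. LUM (1756 to 2288 FPKM) and ACTA2 (703 to 951 FPKM) held most of that sum. It could therefore not show a change of genes such as COL1A1, at 16.1 to 126 FPKM. The part of cell composition in the synthetase values was not tested.

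In HIGH against LOW, 22 of the 32 genes had the lower mean in HIGH. The median log2 fold change was -0.072 over the cytosolic genes and -0.13 over the mitochondrial genes, of which 12 of 14 were lower. Over all genes tested it was 0.057, with 44.5% of them lower. Over the 13805 genes of the stricter filter, which all 32 passed, it was -0.027, with 7378 lower. The mitochondrial median was -0.0084 with the small RNA share as a covariate and 0.0095 with the ribosomal protein level as a covariate, and 7 of 14 genes were lower in either fit. It was -0.087 without HIGH 1. Both covariates lay mostly lower in HIGH than in LOW, so in these fits group and covariate cannot be told apart. The cytosolic median was -0.016 with upper quartile scaling and -0.011 without scaling. Of the 8 theca and stroma markers, 3 were higher at an unadjusted p under 0.05 in this comparison too, where 7.66% of all genes tested passed. These were COL1A1 by 1.49, COL1A2 by 0.80 and COL3A1 by 0.34 on the log2 scale. By sign alone 5 of the 8 markers were higher and 3 lower. The part of these markers in the synthetase values was not tested. Groups without overlap were seen for 8 genes, or 25% of them, where 18.9% of all genes tested had none: QARS was higher in HIGH, and FARSB, RARS, HARS, WARS2, NARS2, EPRS and HARS2 were lower.

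FARSB, the beta subunit of the phenylalanine enzyme (chromosome 2, 223749956 to 223819309), had the smallest p-value of this comparison. Its FPKM was 41.1, 45.1 and 53.5 in CON, 46.4, 51.4 and 47.1 in LOW and 34.2, 36.4 and 46.2 in HIGH. HIGH 3 came within reach of the lowest LOW library without entering the range. The log2 fold change was -0.32 (SE 0.15, unadjusted p 0.0587, adjusted p 0.633). It was -0.072 with the small RNA share and -0.11 with the ribosomal protein level as a covariate. Its partner FARSA had a log2 fold change of -0.30 with an unadjusted p of 0.143, and was at 18.4, 20.9 and 25.2 FPKM in CON, 18.8, 23.7 and 20.8 FPKM in LOW and 13.8, 16.9 and 21.4 FPKM in HIGH. Both subunits were lowest in HIGH 1 and highest in CON 3.

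DARS (chromosome 2, 173737054 to 173799138) had a log2 fold change of -0.33 (SE 0.18, unadjusted p 0.0936, adjusted p 0.635) between HIGH and LOW, with HIGH 3 inside the LOW range. This was -0.21 without HIGH 1, -0.0047 with the small RNA share as a covariate and -0.045 with the ribosomal protein level. HARS, the cytosolic histidine enzyme, was at 9.63, 11.6 and 15.5 FPKM in CON, 12.6, 11.5 and 12.1 FPKM in LOW and 8.55, 10.1 and 10.4 FPKM in HIGH. Its log2 fold change against LOW was -0.32 (unadjusted p 0.0996), and no HIGH library entered the LOW range. HARS and HARS2 lie 95 bases apart in the files' coordinates, and how reads at their border were assigned is not stated.

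The spread between cultures of 1 group set a limit to every comparison and had a shape of its own. Over the 32 genes the median SD within groups was 0.18 on the log2 scale. It exceeded 0.4 for 3 genes, QARS (0.48), YARS (0.67) and MARS2 (0.68). The highest library was under 1.5 times the lowest for 15 genes and over 2 times for 5. TARS was the most even by this measure, at 1.14 times.

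YARS and QARS shared their pattern over the libraries. YARS was higher in CON 1 than in CON 3 by 1.72 and in HIGH 1 than in HIGH 3 by 1.51 on the log2 scale, and QARS by 1.37 and 0.86. NARS differed in the same way by 0.63 and 0.35, KARS by 0.41 and 0.29, and PARS2 by 0.86 and 0.41. In contrast CARS2 was lower in CON 1 than in CON 3 by a log2 difference of -0.77 and in HIGH by -0.68. FARSA differed by -0.45 and -0.64, DARS by -0.57 and -0.51, and FARSB by -0.38 and -0.43. Over all 32 genes, 16 were lower in library 1 than in library 3 of both CON and HIGH, as the ribosomal protein genes were, and 9 were higher in both.

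**Figure D3:**
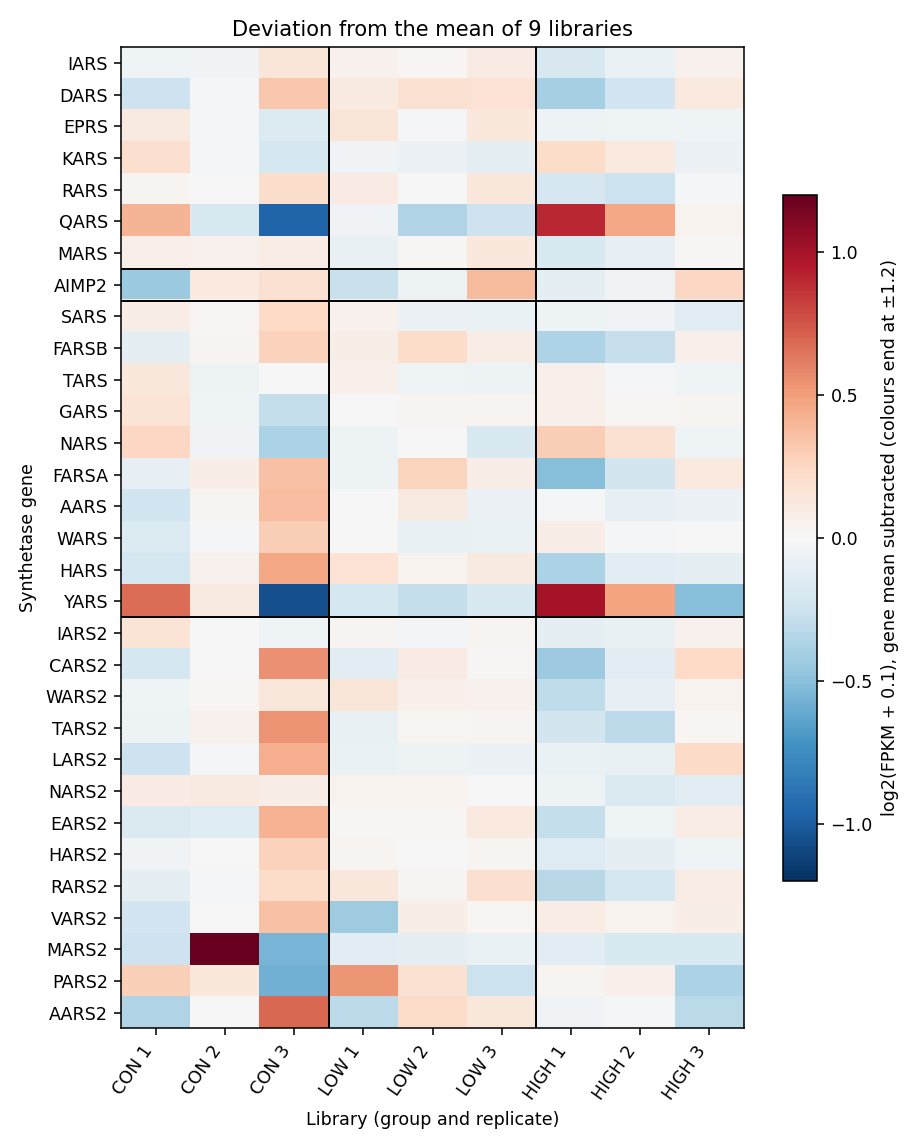
Deviation of log2(FPKM + 0.1) of 31 synthetase genes, each from its own mean over the 9 libraries, red above and blue below, with colours ending at ±1.2; black lines split the groups and the gene classes. QARS and YARS are red in CON 1 and HIGH 1 and blue in CON 3, most other genes are red in CON 3 and blue in HIGH 1, and the LOW columns are pale.

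Of the 32 genes, 21 (65.6%) were lower in CON 1 than in CON 3, where 43.6% of all genes tested were. In HIGH 18 genes (56.3%) were lower in library 1 than in library 3, where 43.9% of all genes tested were. The sign of the 2 differences was the same for 25 of the 32 genes (78.1%), close to the 73.6% of all genes. The agreement in sign was thus also present over all genes, but the lean was not. Over all genes tested, 7586 were lower in library 1 than in library 3 of both groups and 10342 were higher in both. The part of library preparation or of the state of the cultures in this pattern was not tested.

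**Figure D4:**
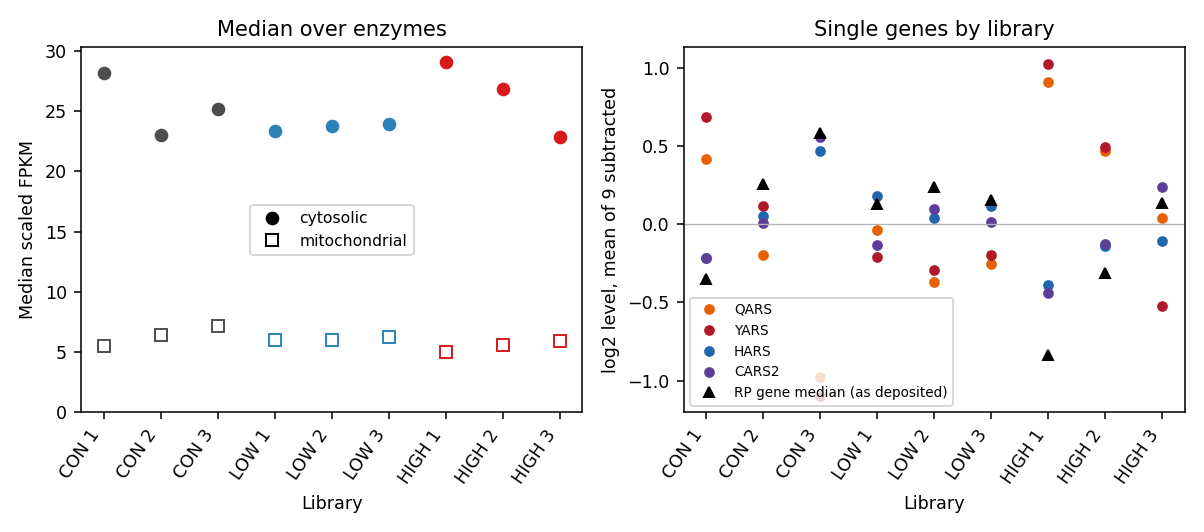
Left, median scaled FPKM of the 17 cytosolic (filled circles) and 14 mitochondrial (open squares) synthetase genes in each library, coloured by group; right, log2 level of QARS, YARS, HARS and CARS2 and of the median ribosomal protein gene (RP, triangles, FPKM as deposited), each less its mean of 9 libraries. The cytosolic medians sit above the mitochondrial medians in all 9 libraries; QARS and YARS are highest and the RP median lowest in HIGH 1, and the reverse holds in CON 3.

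Grouped by their role, the genes gave no clearer separation. The 7 enzymes of the multisynthetase complex had median log2 fold changes of 0.032, -0.088 and -0.13 in LOW against CON, HIGH against CON and HIGH against LOW, and the 10 cytosolic enzymes outside it of -0.033, -0.074 and -0.018. By catalytic architecture, the 14 class I enzymes, which carry a Rossmann fold, had medians of -0.037, -0.10 and -0.082, and the 16 class II enzymes of -0.043, -0.18 and -0.13. EPRS holds an enzyme of each class and was left out of both. The count at an unadjusted p under 0.05 was 0 in each of these groups and comparisons.

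The 10 measured synthetases known to be raised by ATF4 (AARS, EPRS, GARS, IARS, MARS, NARS, SARS, TARS, WARS and YARS) had medians of -0.043 in LOW against CON, -0.031 in HIGH against CON and -0.018 in HIGH against LOW. The 7 other cytosolic enzymes had medians of 0.0084, -0.24 and -0.30. None of either group reached an unadjusted p under 0.05, and the difference between the groups was not tested. GARS was at 40.3, 34.6 and 29.4 FPKM in CON, 35.8, 36.8 and 36.8 FPKM in LOW and 37.3, 36.3 and 36.7 FPKM in HIGH. CON spread over the values of both glucose groups, which were narrow and alike in level.

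The wider amino acid response was counted in the same way. Of its 13 genes tested, 0 reached an unadjusted p under 0.05 in LOW against CON, 1 higher and 1 lower did in HIGH against CON, where 6.76% of all genes tested did, and 0 did in HIGH against LOW. ATF4 itself was at 88.4, 74.6 and 61.6 FPKM in CON, 68.2, 80.6 and 67.4 FPKM in LOW and 93.3, 92.3 and 74.9 FPKM in HIGH, with overlapping groups. ASNS, the asparagine synthetase gene that responds to amino acid shortage, was at 17.9, 15.1 and 13.04 FPKM in CON, 16.9, 16.3 and 16.7 FPKM in LOW and 16.5, 15.7 and 20.1 FPKM in HIGH. Neither gene separated the cultures without glucose from those with it. The 2 genes at an unadjusted p under 0.05 between HIGH and CON were DDIT4, an inhibitor of mTOR signalling, with a log2 fold change of 0.77 (adjusted p 0.651), and PSAT1 of serine synthesis, with -0.37 (adjusted p 0.651).

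The genes that act beside the synthetases were also counted. Of 8 tRNA charging partners tested, 1 was lower at an unadjusted p under 0.05 in HIGH against CON, where 6.76% of all genes tested passed. This was SEPSECS, which makes selenocysteine on its tRNA, with a log2 fold change of -0.36 (adjusted p 0.651). In the other comparisons 0 passed. By sign, 7 of the 8 were lower in HIGH against CON (median -0.18) and 8 of 8 in HIGH against LOW (median -0.16). Over all genes tested 43.7% and 44.5% were lower. Another 5 genes act in translation elongation or in the sensing of uncharged tRNA. In each comparison with HIGH, 1 of them was higher and 1 lower at an unadjusted p under 0.05. The shares of all genes tested were 6.76% against CON and 7.66% against LOW. Among them GCN1, which helps in that sensing, was higher in HIGH, with log2 fold changes of 0.36 against CON and 0.45 against LOW. EEF1A2, an elongation factor that delivers charged tRNA, was lower with -0.70 and -0.67. The adjusted p-values of GCN1 and EEF1A2 were 0.601 or more. The 4 mitochondrial elongation genes (TUFM, TSFM, GFM1 and GFM2) had 0 at an unadjusted p under 0.05 in any comparison and medians of -0.0029, -0.22 and -0.21. The 6 interferon gamma targets tested, counted because WARS is known to be induced by interferon gamma, had 0 as well.

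The transcript table let the gene values be checked for single transcripts. The 32 genes had 45 transcripts, of which 42 were tested, and 22 genes had a single one. None was called, where 0.0279%, 0.0279% and 0.0355% of all transcripts were in LOW against CON, HIGH against CON and HIGH against LOW. In LOW against CON 1 transcript reached an unadjusted p under 0.05, where 2.69% of all transcripts did. This was AIMP2-201, at 7.67, 5.49 and 6.17 FPKM in CON and 8.78, 9.91 and 11.3 FPKM in LOW, with a log2 fold change of 0.64 (SE 0.19, unadjusted p 0.00816, adjusted p 1) and no overlap. A longer assembled transcript at the same locus was at 0.617, 6.81 and 6.70 FPKM in CON and 0.543, 0.960 and 3.39 FPKM in LOW. It was higher in CON 2 and CON 3, where AIMP2-201 was lower, and the gene as a whole differed by 0.065 on the log2 scale.

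In HIGH against CON 1 transcript did, where 6.07% of all transcripts did: an assembled transcript of PARS2 at 0.0498, 0.117 and 0.0484 FPKM in CON and 0.291, 0.213 and 0.228 FPKM in HIGH, with a log2 fold change of 1.03 (SE 0.44, unadjusted p 0.0465, adjusted p 0.741). It was a minor product beside PARS2-201 at 1.44 to 2.99 FPKM. In HIGH against LOW 0 did, against 6.90% of all transcripts. The smallest p-values there belonged to FARSB-201 at -0.31 (unadjusted p 0.0524) and RARS-201 at -0.22 (unadjusted p 0.0743), in the direction of their genes. QARS-201, the only transcript of its gene, had log2 fold changes of 0.74 against CON and 0.70 against LOW. NARS2-201, the main transcript of NARS2, was less even than its gene in the glucose groups, at 7.31, 7.11 and 7.17 FPKM in CON, 6.71, 6.86 and 5.81 FPKM in LOW and 6.34, 6.27 and 5.42 FPKM in HIGH, and kept CON above the other groups. The rows of NARS and RARS each also held an antisense transcript, and the counting is not stated to have used strand.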

How the data were processed

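According to the study's methods, ribosomal RNA was removed, paired reads were aligned with Hisat2 and assembled with Stringtie, and FPKM was derived from reads counted with HTSeq. The submitters' processing notes also list STAR and TopHat. The authors deposited FPKM per gene and per transcript. A deposited table labelled as read counts held whole numbers that were within 3% of FPKM times the genomic span times 1 factor per library for 100% of the transcripts examined. These deposited values, made by the authors from FPKM by a rule that is not stated, were treated as a score and not as counts. They served only for the value per kilobase of span behind an FPKM of 1. The precision of low values is limited and counting intervals are not given. The number of columns without a sample was 0.

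Transcripts of unnamed genes were brought to the scale of the gene table. Libraries were then divided by a factor from the median of the 11689 genes that reached an FPKM of 1 in all of them. A gene entered the test if 3 libraries held an FPKM of 0.1 or above and its span was no less than 300 bases. Log2(FPKM + 0.1) was fitted with limma 3.58.1 (R 4.3.3, with a trend), all 9 libraries and 3 groups in 1 model, and p-values were two-sided and adjusted by Benjamini-Hochberg over 24364 genes. A positive fold change means more in the group named first, and the added 0.1 understates changes of low genes. The procedure was tested on simulated data. The thresholds were those of the study (adjusted p under 0.05, log2 fold change beyond 1 either way).

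Full statistics are given for the 4 genes with the smallest p-value in each comparison, and all levels for AIMP2 and for the 3 highest and 2 lowest genes of each class. Others were named after their values were seen. The genes, lists and tests were chosen with earlier results of these data known. Of the 32 genes, 31 were found in the RefSeq gene list of the assembly ARS-UI_Ramb_v3.0 by symbol, with or without a final 1. Alternatives were other pseudocounts, filters and scalings, covariates, a replicate block, 2 groups only, summed rows and leaving out each library. Of the 32 genes, 1 is included in the counts and medians and is not reported here by name.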

Additional observations from a re-analysis of the deposited data

How the results depend on the processing

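Over 20 alternatives, 0 synthetase genes were called in any comparison by limma. The smallest adjusted p of a synthetase gene was 0.173, for HARS without CON replicate 1. The count at an unadjusted p under 0.05 stayed at 0 in LOW against CON. In HIGH against CON, 0 in the reported fit, it was 2 with no filter, where 1912 of 30327 genes tested passed. It was 1 with the stricter filter (1068 of 13805) and 4 with no scaling (2006 of 24365). It was 1 with the small RNA share (1226 of 24364) and 1 with the ribosomal protein level as a covariate (1647 of 24364). When libraries were left out it was 0 to 5. The latter held 4 without CON replicate 1 (6204 of 23751) and 5 without HIGH replicate 3 (3295 of 24092). In HIGH against LOW, also 0, it was 1 with no filter (2214 of 30327) and 3 with only the 2 groups compared (3174 of 23002). It was 3 with the ribosomal protein level as a covariate (1806 of 24364), and 0 to 6 when libraries were left out. The latter held 2 without CON replicate 1 (2567 of 23751), 5 without CON replicate 3 (3065 of 24159) and 6 without HIGH replicate 3 (3865 of 24092). With the replicate number as a block the counts were 0, 4 and 5 in LOW against CON, HIGH against CON and HIGH against LOW. Over all genes tested they were then 632, 3664 and 3903 of 24364. The correlations of same-numbered deviations ran from -0.027 to 0.425, not all above 0.1, so the numbers were taken as names only, and not every library correlated best with its own number.

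With the ribosomal protein level as a covariate, added after seeing the data, the mitochondrial median log2 fold change was -0.037 in HIGH against CON and 0.0095 in HIGH against LOW. When single libraries were left out, the medians in LOW against CON ran from -0.032 to 0.038 (cytosolic, highest without CON replicate 3) and from -0.10 to 0.024 (mitochondrial, highest without CON replicate 3). The log2 fold change of MARS2 in LOW against CON turned from -0.39 to 0.29 without CON replicate 2, within a range of -0.80 to 0.29. The cause was not tested for the other changes. The planned count tests were not run, since the deposited whole numbers are rescaled FPKM.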

Other observations

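TARSL2, a cytosolic threonine enzyme gene whose symbol lies outside the naming rule, was at 0.217, 0.224 and 0.0955 FPKM in CON, 0.128, 0.140 and 0.208 FPKM in LOW and 0.201, 0.315 and 0.176 FPKM in HIGH. The groups overlapped, and its level lay far below that of TARS at 41.0 to 46.7 FPKM.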
